A study of Mus musculus with 3 samples.

Results

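The genes Cubn, Amn, Tcn2, Slc46a1, Slc19a3, Slc5a6 and Slc23a1 encode proteins for the uptake and transport of water-soluble vitamins. These 7 genes were chosen by their symbols among the 31053 genes of the count tables. No value entered this rule, but earlier results of these data were known when the genes were chosen. The cells came from 3 male wild-type (WT) C57BL/6N mice, 12 weeks old, whose small intestine was divided into duodenum, jejunum and ileum. No animal was treated, and the labels name no transgene or altered allele. Detached intestinal epithelial cells, among them intraepithelial immune cells, were pooled over the 3 mice, sorted for live cells that excluded propidium iodide and made into 1 droplet library per segment with a 3′ kit. The pooled animals cannot be told apart, and a difference between segments is a difference between libraries without replicates, so segments were not tested. Cell classes and villus positions were compared within the 3 libraries.

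Water-soluble vitamins cross the brush border of enterocytes through dedicated receptors and carriers. Vitamin B12 arrives bound to intrinsic factor and is taken up by endocytosis through a receptor made of cubilin (Cubn), the large extracellular ligand-binding protein, and amnionless (Amn), the membrane protein that anchors cubilin and brings it to the cell surface. This uptake is known as a function of the ileum. Transcobalamin (Tcn2) is the carrier that binds vitamin B12 for its passage in blood. Folate enters through the proton-coupled transporter Slc46a1 and thiamine through the transporter Slc19a3. The sodium-dependent carrier Slc5a6 takes up biotin and pantothenate, and the sodium-dependent carrier Slc23a1 takes up ascorbate, which is vitamin C.

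Each unique molecular identifier (UMI) marks 1 captured transcript, and the libraries of duodenum, jejunum and ileum held 98518847, 87656078 and 78074516 UMIs. Cells were kept between 800 and 50000 UMIs and between 200 and 6000 genes if no more than 40% of their UMIs were mitochondrial, which left 4255, 4360 and 8071 of 9501, 8139 and 9595 barcodes. Clusters named as enterocytes held 3724, 3788 and 5137 of these cells. All 13 enterocyte markers were found in them, with a summed level of 538 to 785 UMIs per 10000 UMIs. Enterocytes of the duodenum and jejunum had a median of 12479 and 12189.5 UMIs with 28.4% and 28.7% mitochondrial UMIs, while those of the ileum had 6387 UMIs with 12.99%. The summed level of 8 goblet cell markers within enterocytes was 4.66 and 4.67 in the duodenum and jejunum and 16.3 in the ileum. The part of depth, mitochondrial share and goblet cell transcripts in the differences between segments was not tested. Of the cells kept, 691 stayed without a name, and a cluster of 24 cells, 23 of them of the ileum, was kept out of the enterocytes by a threshold set after the data were seen. A barcode sequence occurred in 2 libraries in 70 cases, 21 of them among kept cells.

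All 7 genes are protein-coding. Cubn (ENSMUSG00000026726) lies at chr2:13276338-13491813 on the minus strand of GRCm38, Amn (ENSMUSG00000021278) at chr12:111271095-111276426 on the plus strand and Tcn2 (ENSMUSG00000020432) at chr11:3917192-3932159 on the minus strand, in the GENCODE M21 annotation. Slc46a1 (ENSMUSG00000020829) lies at chr11:78465697-78472059 on the plus strand, Slc19a3 (ENSMUSG00000038496) at chr1:83012523-83038448 on the minus strand and Slc5a6 (ENSMUSG00000006641) at chr5:31036036-31048924 on the minus strand.

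RefSeq (GRCm38.p6) promoter sequences were found for 5 of the 7 genes. The 250 bases upstream of the start are printed for 4 of them, 5′ to 3′ on the strand of the gene, to show both receptor genes for vitamin B12 (Cubn, Amn), which were highest in the ileum, beside both members that were highest in the duodenum (Slc46a1, Slc19a3). Capitals mark CAAAG and its reverse complement CTTTG, the core of the motif of the nuclear receptor HNF4, which is active in enterocytes. The windows lie at chr2:13491877-13492126 (minus strand), chr12:111270846-111271095 (plus), chr11:78465451-78465700 (plus) and chr1:83038449-83038698 (minus) in this order.
Cubn: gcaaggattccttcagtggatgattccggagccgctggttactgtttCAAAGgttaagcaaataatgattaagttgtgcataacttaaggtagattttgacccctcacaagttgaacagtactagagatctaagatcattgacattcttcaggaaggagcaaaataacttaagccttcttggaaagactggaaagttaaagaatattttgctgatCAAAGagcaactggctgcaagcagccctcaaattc
Amn: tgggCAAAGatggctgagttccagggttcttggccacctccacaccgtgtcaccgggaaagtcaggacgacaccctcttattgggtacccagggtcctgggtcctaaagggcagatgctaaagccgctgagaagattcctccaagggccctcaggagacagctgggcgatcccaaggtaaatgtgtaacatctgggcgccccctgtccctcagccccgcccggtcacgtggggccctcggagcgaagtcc
Slc46a1: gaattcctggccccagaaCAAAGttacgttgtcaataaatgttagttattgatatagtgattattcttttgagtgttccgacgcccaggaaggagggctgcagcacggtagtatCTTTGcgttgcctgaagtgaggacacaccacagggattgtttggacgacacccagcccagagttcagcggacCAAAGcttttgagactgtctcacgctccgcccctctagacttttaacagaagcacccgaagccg
Slc19a3: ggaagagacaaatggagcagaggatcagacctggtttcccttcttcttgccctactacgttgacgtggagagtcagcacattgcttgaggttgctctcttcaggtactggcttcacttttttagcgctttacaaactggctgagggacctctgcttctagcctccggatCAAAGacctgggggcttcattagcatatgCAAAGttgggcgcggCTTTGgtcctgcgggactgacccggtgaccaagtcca

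CAAAG was found 2 times in the window of Cubn, 1 time in that of Amn, and 3 times each in those of Slc46a1 and Slc19a3, counted on both strands. Slc5a6, which has 2 starts in the table and is not printed, held it 0 times before one start and 1 time before the other. Of 32851 promoters of the same length, 48.6% held CAAAG, so its presence in these windows is common. AGATAA, read by GATA factors, was in 9.99% of all promoters and TATAAA in 12.4%, and neither was in the windows of the 5 genes. TTTAT, read by CDX factors, was in 37.3% of all promoters and was found 1 time, in the window of Slc46a1. Both strands were searched for each, and the reverse complement of TTTAT is contained in TATAAA. The GC content of the windows was 39.6% for Cubn, 61.2% for Amn, 49.6% for Slc46a1 and 52.8% for Slc19a3. A match describes these letters alone and not a bound site.

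Next, the level of each gene in enterocytes was compared along the intestine, as UMIs of the gene per 10000 UMIs summed over the cells. Both receptor genes for vitamin B12 were lowest in the duodenum and highest in the ileum. Cubn was counted at 0.716, 1.70 and 3.20 from duodenum to ileum (3563, 8931 and 14637 UMIs). The log2 ratio of ileum over duodenum was 2.16 (95% interval 2.11 to 2.22), or 4.48-fold, where all intervals cover counting error only and not the spread between animals. Amn was counted at 1.38, 3.37 and 5.32 (6857, 17732 and 24297 UMIs), a log2 ratio of 1.95 (1.91 to 1.99), or 3.86-fold. For both genes the step from duodenum to jejunum (log2 ratios of 1.25 and 1.29) was larger than that from jejunum to ileum (0.92 and 0.66). Within villus zones, described further on, this order held for Cubn near the bottom alone and for Amn up to the zone below the tip. Zones were set within each library, so the same zone can differ in villus position between segments. The carrier gene Tcn2 was counted in every segment and differed less, at 3.40, 4.03 and 5.54 (16917, 21191 and 25303 UMIs), with a log2 ratio of ileum over duodenum of 0.70 (0.68 to 0.73).

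**Figure D1:**
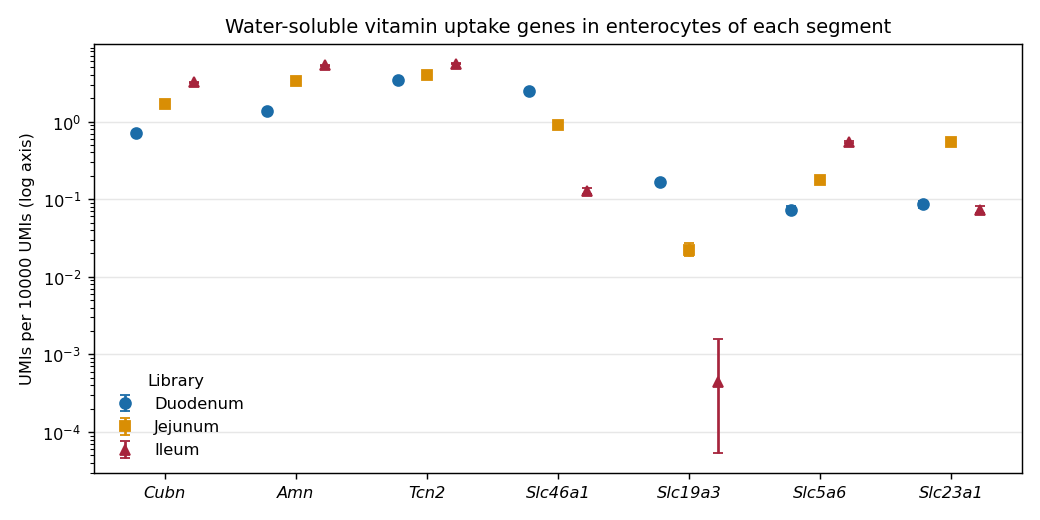
Levels of the 7 genes in enterocytes, in UMIs per 10000 UMIs on a log axis, with 1 point per library and 95% intervals for counting error. Cubn, Amn, Tcn2 and Slc5a6 were highest in the ileum, Slc46a1 and Slc19a3 in the duodenum and Slc23a1 in the jejunum.

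The transporters of folate and thiamine ran the other way. Slc46a1 was counted at 2.50, 0.911 and 0.128 from duodenum to ileum (12469, 4790 and 587 UMIs). Its level was 2.75-fold lower in the jejunum than in the duodenum, and 19.5-fold lower in the ileum than in the duodenum (log2 ratio -4.29, -4.41 to -4.17). Slc19a3 was highest in the duodenum too, at 0.167, 0.0224 and 0.000438 in the same order (833, 118 and 2 UMIs). The log2 ratio of jejunum over duodenum was -2.90, and that of ileum over duodenum was -8.58 with an interval of -11.63 to -6.72, since it rests on 2 UMIs. Among the cells of all classes, 98.3% of the UMIs of Slc46a1 and 98.5% of those of Slc19a3 were in enterocytes, as were 94.3% to 96.4% of those of the other 5 genes. Enterocytes held 49791512, 52607309 and 45705406 of the 57079945, 58186946 and 66148396 UMIs of all kept cells from duodenum to ileum, which is the baseline for these shares.

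The remaining transporters each had a pattern of their own. Slc5a6, for biotin and pantothenate, was counted at 0.0735, 0.177 and 0.545 from duodenum to ileum (366, 930 and 2491 UMIs), which is 7.41-fold higher in the ileum than in the duodenum (log2 ratio 2.89, 2.73 to 3.05). Slc23a1, for vitamin C, was highest in the jejunum at 0.548, against 0.0856 in the duodenum and 0.0731 in the ileum (2881, 426 and 334 UMIs). It was thus 6.40-fold higher in the jejunum than in the duodenum and 7.49-fold higher than in the ileum. Its level in the ileum lay close to that in the duodenum (log2 ratio -0.23, -0.44 to -0.02), and the sign of this ratio depended on the processing, with 0.27 at a limit of 20% mitochondrial UMIs and 0.29 in clusters without integration. Without integration, clusters with 973 and 835 ileal cells, led by Fgf15 and Fabp6, stayed without a name and were not counted as enterocytes. For every other gene the ratio of ileum over duodenum kept its sign under the alternatives tried, with ranges of 1.85 to 2.46 for Cubn, 1.69 to 2.15 for Amn, -4.69 to -3.75 for Slc46a1, -8.79 to -7.20 for Slc19a3, 2.67 to 3.42 for Slc5a6 and 0.49 to 0.98 for Tcn2.

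Counted at a fold of 2, 5 of the 7 genes differed between ileum and duodenum, 3 higher and 2 lower in the ileum, where 30.1% of 13435 genes did so (18.1% higher and 11.9% lower). Between jejunum and duodenum 6 of 7 differed, 4 higher and 2 lower in the jejunum, against a background of 20.7% of 12830 genes (7.95% higher and 12.7% lower). Between ileum and jejunum 4 of 7 differed, 1 higher and 3 lower in the ileum, against 24.4% of 13256 genes (18.3% higher and 6.06% lower). The median log2 ratio of the 7 genes was 0.70, 1.25 and 0.46 in this order, beside 0.065, -0.24 and 0.29 over all genes. The 3 comparisons share their libraries and are not independent of each other.

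Moreover, the other genes of the same vitamins were read from lists fixed by name, at the same fold of 2 between ileum and duodenum. In the list for vitamin B12, 1 of 13 genes counted differed, namely Dab2, an endocytic adaptor, with 0, 53 and 59 UMIs from duodenum to ileum, while Gif and Lrp2 had 0 UMIs in enterocytes of every segment. The list for folate had 2 of 10 genes higher in the ileum and 4 lower. Slc19a1, the reduced folate carrier, was counted at 0.536, 0.0641 and 0.0127 from duodenum to ileum (log2 ratio of ileum over duodenum -5.40), and Ggh, which trims polyglutamates from folate, had a log2 ratio of -3.49. Fpgs, which adds them, had a log2 ratio of 2.20 and the exporter Abcg2 of 1.16. The uptake carriers Slc46a1 and Slc19a1 were thus both highest in the duodenum.

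In the list for thiamine and vitamin B6, 1 of 6 genes was higher and 1 lower in the ileum. Slc44a4, a carrier of thiamine pyrophosphate, had a log2 ratio of 2.03, and Pdxk, the pyridoxal kinase, of -1.57. Slc19a2, the other thiamine carrier, was counted at 0.0866, 0.0399 and 0.0457 from duodenum to ileum, a smaller difference than that of Slc19a3. In the list for biotin and pantothenate 1 of 10 genes was lower, the mitochondrial carrier Slc25a42 (-1.06), and none was higher. The list for riboflavin and niacin had 2 of 10 genes higher and 3 lower. Slc5a8, a sodium-coupled carrier of monocarboxylates and nicotinate, had 8, 3032 and 8336 UMIs from duodenum to ileum, a log2 ratio of ileum over duodenum of 10.15, and the riboflavin carrier Slc52a3 had a log2 ratio of 2.95. Slc22a13 had 46, 17 and 1 UMIs, and Nampt a log2 ratio of -1.29. For vitamin C, 1 of 4 genes was higher in the ileum, Slc23a3 (2.12), and 2 were lower, Slc23a2 (-2.90) and Gsto1 (-1.24).

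**Figure D2:**
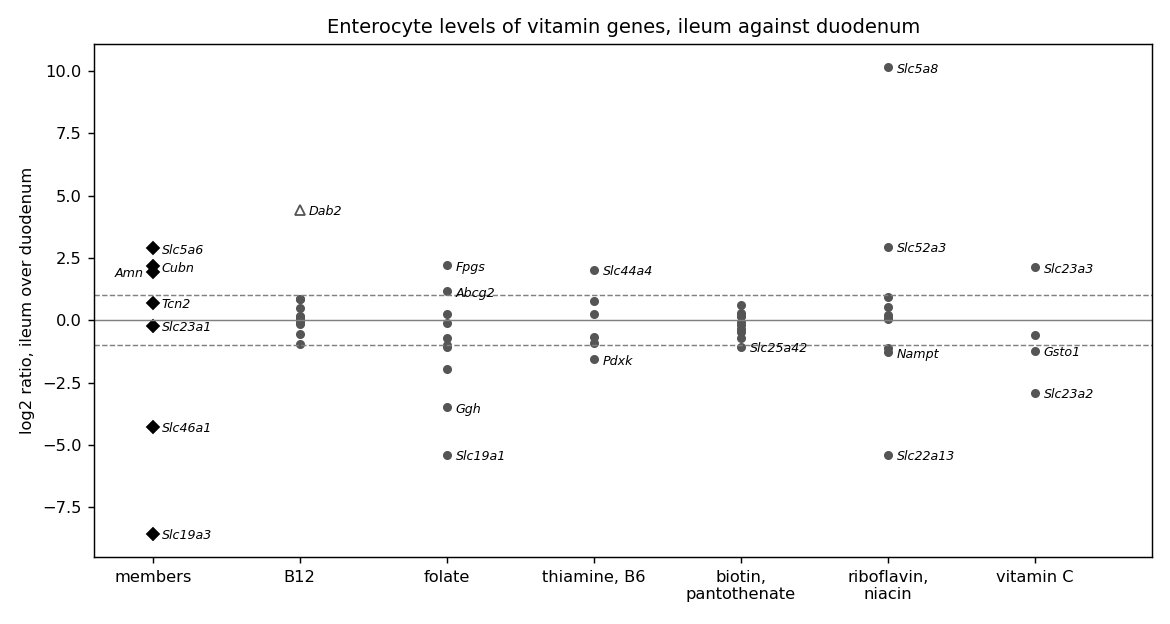
Log2 ratio of ileum over duodenum in enterocytes for the 7 genes and for each list of other vitamin genes, where 1 point is 1 gene, names stand beside genes given in the text, dashed lines mark a fold of 2 and an open triangle is a bound for a gene with 0 UMIs in a library. Slc5a8 (10.15) and Slc19a3 (-8.58) stand at the ends of the plot.

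Slc23a1 (ENSMUSG00000024354) lies at chr18:35614604-35627244 on the minus strand of GRCm38. No member overlaps another gene of its own strand in the annotation. Slc5a6 overlaps Atraid and Slc23a1 overlaps Paip2, both on the opposite strand, and the strand setting of the counting is not given in the sources used here, so reads of these partners cannot be told apart from theirs.

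Enterocytes migrate from the crypt to the villus tip and change their expression on the way. To place them, each cell was scored by 8 tip landmark genes, such as Ada, Nt5e and Klf4, minus 11 bottom landmark genes, such as Reg3b, Nlrp6 and Ccl25, none of which is a member, and the enterocytes of each library were divided into 5 zones of equal cell number, from zone 1 at the bottom to zone 5 at the tip. Zones are ranges of a score and not types, with 26.2% to 28.2% of the cells of a library lying within 0.1 SD of a border. The median depth fell from 17324 UMIs in zone 1 to 8544.5 in zone 5 in the duodenum and from 15609 to 10871 in the jejunum, while in the ileum it was 8050.5 in zone 1, 4838 in zone 2 and 7408 in zone 5. In the ileum the median mitochondrial share fell from 17.0% to 8.30%. In zones 1, 3 and 5 it was 24.9%, 29.9% and 28.6% in the duodenum and 27.9%, 29.9% and 25.7% in the jejunum. From duodenum to ileum, the level of cycling cell markers was 0.917, 0.858 and 1.28 in zone 1. It was 0.457, 0.487 and 0.614 in zone 3 and 0.478, 0.379 and 0.615 in zone 5. The part of these shifts in the zone differences was not tested.

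Cubn had a sharp maximum in the lower and middle villus. In the ileum its level was 2.83, 6.30, 4.90, 2.09 and 0.587 UMIs per 10000 UMIs from zone 1 to zone 5, which is 10.7-fold lower at the tip than in zone 2. In the jejunum it was 1.59, 3.57, 1.84, 0.833 and 0.328, with the maximum in the same zone and a 10.9-fold lower level at the tip. In the duodenum the maximum lay in zone 3, with 0.303, 0.871, 1.16, 0.998 and 0.313. The log2 ratio of ileum over duodenum was 3.22 in zone 1 and 0.91 in zone 5, and that of jejunum over duodenum was 2.39, 2.04, 0.66, -0.26 and 0.069 from zone 1 to zone 5. The ratio of ileum over jejunum was 0.83, 0.82, 1.41, 1.33 and 0.84, so these libraries lay as far apart at the tip as at the bottom. For Amn the ratio of jejunum over duodenum was 1.46, 1.55, 1.33, 1.01 and 0.88 and that of ileum over jejunum 0.27, 0.59, 0.82, 0.87 and 1.03. At an equal depth of 3000 UMIs per cell, Cubn was found in 74.3% of ileal cells of zone 2 (95% exact binomial interval 71.1 to 77.3%, 797 cells) and in 13.7% of those of zone 5 (11.6 to 16.0%, 987 cells).

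Amn, its partner in the receptor, did not decline in this way. In the ileum Amn was counted at 3.50, 6.27, 7.01, 6.15 and 4.91 from zone 1 to zone 5, in the jejunum at 2.90, 4.16, 3.97, 3.36 and 2.41 and in the duodenum at 1.06, 1.42, 1.58, 1.67 and 1.31. The range of the levels within a library was thus 2.00-fold at most, between zone 3 and zone 1 of the ileum. Tcn2 varied up to 2.16-fold, with 3.51, 6.52, 7.58, 6.86 and 4.64 in the ileum. Its levels were 3.67, 5.03, 4.72, 3.92 and 2.64 in the jejunum, and 2.91, 3.73, 3.85, 3.82 and 2.69 in the duodenum.

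Slc46a1 was the member with its highest levels toward the tip in 2 of the 3 libraries. Its level was 0.432, 0.924, 1.06, 1.16 and 1.17 in the jejunum and 0.0582, 0.0345, 0.117, 0.216 and 0.245 in the ileum, with the maximum in zone 5 of both, although the intervals of zones 4 and 5 overlapped. In the duodenum, where the gene is highest, the level was 1.59, 2.97, 3.02, 2.88 and 2.40 from zone 1 to zone 5. There it was lower in zone 5 than in zone 3 (log2 ratio -0.33, -0.42 to -0.25). Slc19a3 was counted in the duodenum at 0.116, 0.222, 0.184, 0.202 and 0.118 and in the jejunum at 0.0052, 0.0241, 0.0339, 0.0366 and 0.0175, while its 2 UMIs in the ileum were in zones 3 and 4.

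Slc5a6 and Slc23a1 were highest in the middle of the villus. Slc5a6 was counted at 0.379, 0.916, 0.940, 0.476 and 0.180 in the ileum, at 0.0764, 0.194, 0.304, 0.236 and 0.0946 in the jejunum and between 0.0511 and 0.0877 in the duodenum. Slc23a1 was counted at 0.361, 0.877, 0.766, 0.496 and 0.226 in the jejunum, at 0.0246, 0.0838, 0.126, 0.150 and 0.0731 in the duodenum and at 0.0196, 0.114, 0.158, 0.0821 and 0.0320 in the ileum. The maximum of Slc23a1 lay in zone 2 of the jejunum, while the intervals of zones 3 and 4 overlapped in the duodenum and those of zones 2 and 3 in the ileum.

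**Figure D3:**
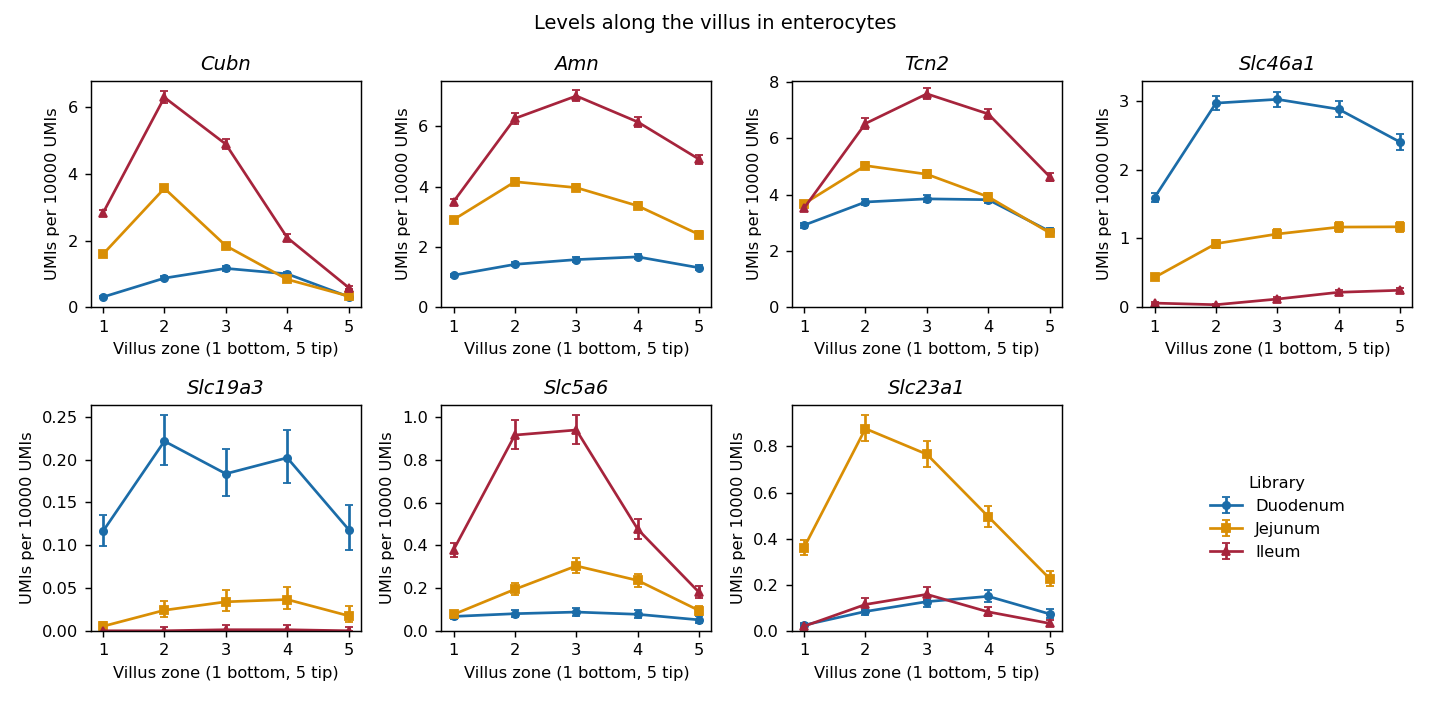
Level of each gene in enterocytes from villus zone 1 (bottom) to zone 5 (tip), in UMIs per 10000 UMIs, with 1 line per library and 95% intervals for counting error. Cubn of the jejunum and ileum peaked in zone 2 and was lowest in zone 5, whereas Slc46a1 of both segments was highest in zone 5.

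UMIs summed per library and zone were then compared with edgeR's quasi-likelihood test (11284 genes, library as a block, Benjamini-Hochberg adjustment), where each zone has 3 sums. Between tip and bottom 4 of the 7 genes were called, 3 higher and 1 lower at the tip, in a comparison that called 70.5% of all genes (33.5% higher and 37% lower), so that a call as such is common. Slc46a1 was higher at the tip with a log2 fold change of 2.01 (SE 0.43, adjusted p = 0.00112), Amn with 0.79 (SE 0.15, adjusted p = 0.000372) and Tcn2 with 0.54 (SE 0.17, adjusted p = 0.0142), although without TMM scaling the value of Amn was 0.17 (not called) and that of Tcn2 -0.080. Cubn was lower at the tip with -0.95 (SE 0.39, adjusted p = 0.0435). Slc19a3 (0.91, adjusted p = 0.0692), Slc23a1 (0.89, adjusted p = 0.0503) and Slc5a6 (0.15, adjusted p = 0.700, and -0.47 without TMM scaling) were not called. TMM scaling sets the level of these values, since without it the median of all genes moved from -0.0875 to -0.71 and the share of higher ones among all calls from 47.5% to 25.6%.

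The calls depended on the libraries and settings. Cubn was called in 6 of 13 alternatives. It was not called without the jejunum (-0.59, adjusted p = 0.319) or the ileum (-0.66, adjusted p = 0.320), and its value was 0.19 at a limit of 20% mitochondrial UMIs (edgeR adjusted p = 0.837). It was also not called with 3 zones (-0.83, adjusted p = 0.0857), with the zone score at 2000 UMIs (-0.84, adjusted p = 0.0505) or without the Reg genes as landmarks (-0.99, adjusted p = 0.0514). Tcn2 was not called without the jejunum (0.67, adjusted p = 0.0535) or the ileum (0.26, adjusted p = 0.0903), whereas Slc19a3 was called without the duodenum (2.37, adjusted p = 0.00936) and Slc23a1 without the jejunum (1.74, adjusted p = 0.00778). The limit of 20% mitochondrial UMIs gave calls for both, with 1.85 for Slc19a3 (adjusted p = 0.00414) and 1.81 for Slc23a1 (adjusted p = 0.00522), and DESeq2 called Slc23a1 (1.07, adjusted p = 0.00976). The zone score at 2000 UMIs called Slc19a3 (1.14, edgeR adjusted p = 0.0348) and Slc23a1 (0.90, adjusted p = 0.0360), and Slc19a3 was called without Apoa4 as a landmark (1.02, adjusted p = 0.0443).

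Next, the middle of the villus was compared with both ends. All 7 genes were higher in zone 3 than in zone 1, where 47.1% of all genes were called, 23.3% higher and 23.8% lower, a contrast chosen after the data were seen. The largest differences were those of Slc23a1 (log2 fold change 2.07, adjusted p = 0.000502) and Slc5a6 (1.41, adjusted p = 0.00305), followed by Slc19a3 (1.33, adjusted p = 0.0156), Slc46a1 (1.23, adjusted p = 0.0293), Cubn (1.06, adjusted p = 0.0362), Amn (0.84, adjusted p = 0.000611) and Tcn2 (0.77, adjusted p = 0.00309). Zone 2 gave 6 of 7 higher against zone 1 (25.1% of all genes called, 10.9% higher and 14.2% lower), without Slc46a1 (0.79, adjusted p = 0.187). Zone 4 gave 6 of 7 higher against zone 1 (60% called, 29.4% higher and 30.5% lower), without Cubn (0.39, adjusted p = 0.399). These contrasts of zones 2 and 4 were not planned beforehand either. Of 12 alternatives, the call in zone 2 was made in 7 for Cubn and in 8 each for Slc19a3 and Slc5a6, and the call in zone 4 in 7 for Slc5a6. In zone 3, Cubn was not called without TMM scaling (0.85, adjusted p = 0.128), without the cluster led by Gm26917, an alternative chosen after the data were seen (0.50, adjusted p = 0.349), or without the Reg genes as landmarks (1.04, adjusted p = 0.0550). Without these landmarks Slc46a1 was not called either (1.10, adjusted p = 0.0502). Without the jejunum 2 of the 7 calls were made, those of Amn and Slc23a1, and without the ileum 5, with Cubn (adjusted p = 0.151) and Slc19a3 (adjusted p = 0.0559) not called.

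From zone 3 to zone 5, a contrast chosen likewise, 3 genes were lower, where 43% of all genes were called, 21.7% higher and 21.3% lower. Cubn fell by 2.01 on the log2 scale (SE 0.40, adjusted p = 0.00191), Slc5a6 by 1.26 (SE 0.33, adjusted p = 0.00963) and Slc23a1 by 1.19 (SE 0.37, adjusted p = 0.0208). The values of Amn (-0.05, 0.0027 with DESeq2 and 0.047 without the jejunum), Tcn2 (-0.24), Slc19a3 (-0.42) and Slc46a1 (0.78, adjusted p = 0.150) did not pass the test. Without TMM scaling, edgeR called both Amn (-0.50, adjusted p = 0.018) and Tcn2 (-0.69, adjusted p = 0.0052) lower in zone 5. Their levels, which carry no such scaling, were lower in zone 5 than in zone 3 in every library. From duodenum to ileum, the log2 ratios were -0.27, -0.72 and -0.51 for Amn and -0.51, -0.84 and -0.71 for Tcn2. The calls of Amn and Tcn2 thus depended on the scaling. Without the ileum only the call of Cubn was made among the 7, with adjusted p of 0.128 for Slc5a6 and 0.143 for Slc23a1, and without the jejunum Slc23a1 was not called (adjusted p = 0.0764). At a limit of 20% mitochondrial UMIs neither Cubn (-1.87, adjusted p = 0.0591) nor Slc23a1 (-1.10, adjusted p = 0.0649) was called, and Slc23a1 was not called without the cluster led by Gm26917 (adjusted p = 0.0584).

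Since cubilin and amnionless form 1 receptor, their UMIs were set side by side within each group of cells. The counts are of 3′ tags and carry no factor for gene length, but genes can differ in capture, so the ratio is read only between groups. In enterocytes as a whole, Amn had 1.92, 1.99 and 1.66 UMIs for each UMI of Cubn from duodenum to ileum. From zone 1 to zone 5 the ratio was 1.24, 0.994, 1.43, 2.95 and 8.37 in the ileum (7.63 to 9.19 in zone 5), 1.83, 1.17, 2.15, 4.04 and 7.35 in the jejunum and 3.49, 1.63, 1.36, 1.67 and 4.18 in the duodenum. All 3 libraries thus had the lowest ratio in zone 2 or 3 and the highest in zone 5, and no interval of zone 5 overlapped that of zone 3 in the same library. In the duodenum the interval of zone 5 (3.59 to 4.87) overlapped that of zone 1 (3.13 to 3.90).

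**Figure D4:**
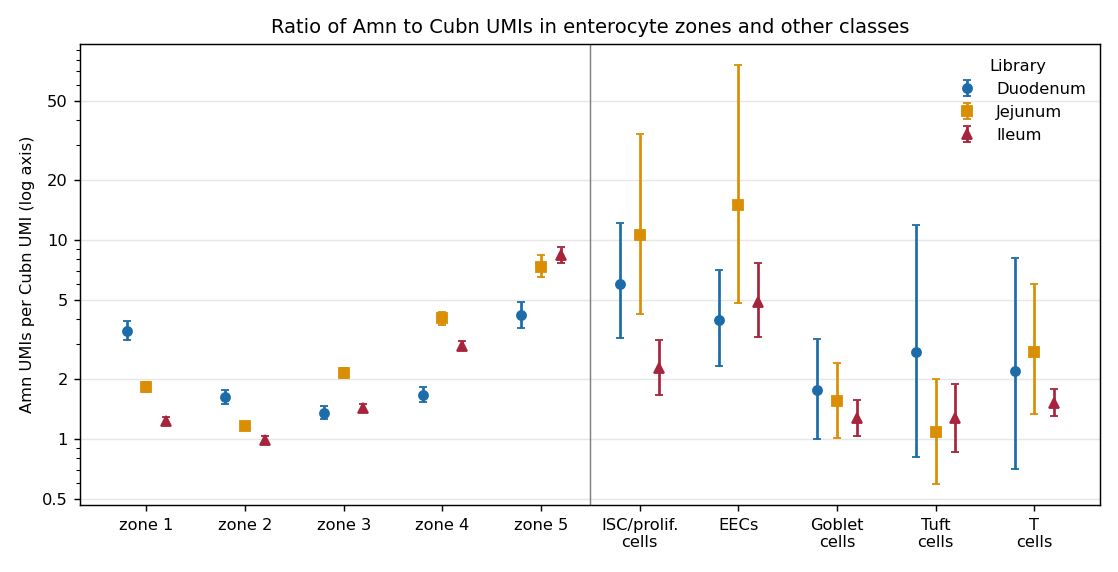
UMIs of Amn per UMI of Cubn on a log axis in the 5 enterocyte zones and in other cell classes, with 1 point per library and 95% intervals for counting error. The ratio was at 0.994 in zone 2 and 8.37 in zone 5 of the ileum, and in EECs it lay between 3.94 and 15.

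The same vitamins' other genes were mixed between tip and bottom, where 33.5% of all genes were higher and 37% lower. For vitamin B12, 3 of 11 genes tested were higher at the tip and 6 lower. Lmbrd1, the lysosomal exporter of vitamin B12 (log2 fold change 1.36), and Mmaa (0.99) were higher, and Cd320, the receptor for transcobalamin (-2.89), and Mmachc (-2.74) were lower. For folate 3 of 10 were higher, among them Ggh (1.72), and 6 lower, among them Mthfd1 (-4.39) and Shmt1 (-3.80), which supply folate units for nucleotides. The lists for thiamine and vitamin B6 (3 higher and 2 lower of 6), biotin and pantothenate (2 and 6 of 10), riboflavin and niacin (4 and 2 of 9) and vitamin C (1 and 2 of 3) also held genes of both directions. Rfk, the riboflavin kinase (1.91), and Slc5a8 (1.01) were higher, and Pank1 (-3.60) and Slc25a42 (-3.22) were lower. Without TMM scaling these lists had 1, 1, 0, 0, 1 and 0 genes higher and 8, 7, 2, 8, 3 and 2 lower in this order, so the count of higher genes depends on the scaling.

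Next, the other cell classes were compared with enterocytes, by UMIs summed per library and class over at least 10 cells. The fit held 12247 genes, with the library as a block. In ISC/proliferating cells, which had 78, 55 and 99 cells from duodenum to ileum, all 7 genes were lower than in enterocytes, as were 33.4% of all genes (61.6% were called in either direction and 28.2% were higher). By edgeR's adjusted p, the log2 fold change was -4.51 for Cubn (SE 0.48, adjusted p = 2.5e-08), -3.29 for Amn (SE 0.26, adjusted p = 3.46e-10), -3.50 for Tcn2, -4.60 for Slc46a1, -4.43 for Slc19a3 and -5.07 for Slc23a1. Slc5a6 was lower by the least, with -1.78 (SE 0.38, adjusted p = 0.000331). Its value was -0.93 without TMM scaling (adjusted p = 0.0464), -1.27 with DESeq2 and -2.29 without the duodenum. It was called in all 11 alternatives that tested it, but it could not be tested without the ileum. Its level without TMM scaling had counting intervals of 0.0380 to 0.122 in the duodenum and 0.0754 to 0.231 in the jejunum. These include the enterocyte levels of 0.0735 and 0.177, while in the ileum the level was 21.3% of that of enterocytes.

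In goblet, tuft and T cells and in enteroendocrine cells (EECs) all 7 genes were lower as well. Of all genes tested, 34%, 43.1%, 61.2% and 51.2% were called in goblet cells, tuft cells, T cells and EECs, of which those that were lower made up 19.4%, 24.2%, 33.6% and 27.7% of all genes and those that were higher 14.6%, 19%, 27.6% and 23.5%. The 7 genes had a median log2 fold change of -3.07, -3.12, -2.93 and -2.92 in this order, beside -0.09, -0.16, -0.18 and -0.13 over all genes. In goblet cells the values were -3.07 for Cubn, -3.36 for Amn, -3.26 for Slc46a1, -3.77 for Slc19a3, -2.80 for Slc5a6, -3.01 for Slc23a1 and, closest to 0, -2.13 for Tcn2 (SE 0.23, adjusted p = 7.11e-08). In T cells they were -3.35 for Cubn, -3.22 for Amn, -3.26 for Tcn2, -2.93 for Slc46a1, -2.90 for Slc19a3, -2.69 for Slc5a6 and -2.48 for Slc23a1, where the value of Slc19a3 rests on 1 UMI in all T cells and was not called at a limit of 20% mitochondrial UMIs (adjusted p = 0.0543). In EECs they were -3.60 for Cubn, -2.92 for Tcn2, -4.04 for Slc46a1, -2.02 for Slc19a3 (adjusted p = 0.0248), -2.62 for Slc5a6, -3.25 for Slc23a1 and, closest to 0, -1.94 for Amn (SE 0.25, adjusted p = 6.67e-07). In tuft cells they were -3.12 for Cubn, -3.56 for Amn, -2.66 for Tcn2, -3.78 for Slc46a1, -2.67 for Slc5a6 and -3.09 for Slc23a1. Slc19a3 had 0 UMIs in tuft cells of every library, which allows up to 3 counts per library, and was at least 3.30-fold lower than in enterocytes of the duodenum, while the depth of the jejunum and ileum sets no bound below the enterocyte level. In B cells, where 54.6% of all genes were called, 30.7% lower and 23.9% higher, 5 of 7 genes were called, with -3.18 for Cubn, -2.69 for Amn, -2.73 for Tcn2, -2.75 for Slc46a1 and -2.88 for Slc5a6. Slc19a3 (-1.69, adjusted p = 0.197) and Slc23a1 (-1.41, adjusted p = 0.0616) were not called.

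Every fitted value of the 7 genes in these classes stayed below 0 without TMM scaling, although the median of all genes then moved to between -0.19 for goblet cells and 0.66 for EECs and the share of higher ones among calls from between 43.0% and 45.9% to between 37.1% and 76.2%. Without TMM scaling Slc19a3 was not called in T cells (-2.11, adjusted p = 0.0760) or in EECs (-1.22, adjusted p = 0.190). Slc19a3 was not tested without the duodenum, and neither it nor Slc5a6 was tested without the ileum. Without the jejunum, Slc19a3 (edgeR adjusted p = 0.0635) and Slc23a1 (adjusted p = 0.0661) were not called in T cells, and without the duodenum Slc23a1 was called in B cells (adjusted p = 0.0220), as it was in 4 of 12 alternatives in all. With DESeq2, Slc19a3 was not called in ISC/proliferating, goblet, tuft or T cells or in EECs. Without the library block, edgeR did not call Slc46a1 in goblet (adjusted p = 0.0761), T (0.0732) or B cells (0.0660), nor Slc19a3 in goblet (0.0848) or tuft cells (0.0640) or in EECs (0.327).

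Free RNA of enterocytes can also reach droplets of other cells, so each class level was read beside the enterocyte markers of the same class. In ileal T cells, which should lack these genes, the 13 markers together stood at 15.8% of their enterocyte level, and Amn stood at 15.5%, Cubn at 16.8%, Tcn2 at 16.7% and Slc46a1 at 14.7%. The ratio of Amn to Cubn was 1.53 in these T cells (1.31 to 1.78) and 1.66 in ileal enterocytes. These 4 genes of ileal T cells thus had percentages close to that of the marker sum. Slc5a6 stood at 21.8% (63 UMIs) and Slc23a1 at 28.4% (11 UMIs), above it, and Slc19a3 had 0 UMIs. In the 35 duodenal T cells the marker sum was 28.8%, with Slc46a1 at 50.8% (24 UMIs), Amn at 42.3% (11 UMIs), Cubn at 37.0% (5 UMIs) and Tcn2 at 23.4% (15 UMIs). In jejunal T cells the marker sum was 9.01%, with Amn at 14.7% (30 UMIs), Tcn2 at 16.4% (40 UMIs) and Cubn at 10.7% (11 UMIs). In goblet cells, Amn was at 10.1%, 9.35% and 8.05% of its enterocyte level from duodenum to ileum and Cubn at 11.1%, 12.0% and 10.5%, beside a marker sum of 13.8%, 13.2% and 10.6%. The part of free RNA in these levels was not tested.

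Amn of EECs was above the marker sum of its class. Their markers of enterocytes were at 20.5%, 14.7% and 13.4% of the enterocyte level from duodenum to ileum, whereas Amn was at 65.3%, 45.5% and 32.9% (71, 45 and 137 UMIs). Cubn of the same cells was at 31.9%, 6.02% and 11.2% (18, 3 and 28 UMIs), so the ratio of Amn to Cubn was 3.94 (2.33 to 7.03), 15 (4.82 to 75.5) and 4.89 (3.24 to 7.63), in each library above that of all enterocytes. In the ileum this ratio was below that of enterocyte zone 5 (8.37). In the duodenum it was below that of zone 5 (4.18) and in the jejunum above it (7.35), in both with an interval that includes the value of zone 5. Tcn2 of EECs was at 26.8%, 27.0% and 17.3%.

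In ISC/proliferating cells the marker sum was 9.59%, 5.64% and 6.91%. Slc5a6 stood far above it in the duodenum and jejunum, at 97.0% and 78.0% of its enterocyte level (13 and 14 UMIs) and at 21.3% in the ileum (21 UMIs). As levels these were 0.0713, 0.138 and 0.116 UMIs per 10000 UMIs, so the low share in the ileum goes with the high level of ileal enterocytes. Amn was at 28.7%, 15.5% and 13.7% and Tcn2 at 21.2%, 18.3% and 9.69%, both above the marker sum in every library, and Cubn was at 9.20%, 2.90% and 10.0%. The ratio of Amn to Cubn was 6.00 (3.23 to 12.1), 10.6 (4.27 to 34.0) and 2.28 (1.66 to 3.16).

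Tcn2 stood above the marker sum in all 3 libraries in goblet cells, EECs, ISC/proliferating cells and B cells, although in B cells (7, 16 and 202 UMIs) the counting intervals include the marker sum. In goblet cells it was at 25.3%, 24.0% and 16.4%, in B cells at 21.8%, 35.1% and 19.2% (marker sum 19.3%, 24.6% and 17.0%) and in tuft cells at 24.9%, 29.9% and 16.5%, where the marker sum of tuft cells was 26.8%, 23.1% and 17.8%. The ratio of Tcn2 to Amn was 6.16, 3.07 and 2.13 in goblet cells and 2.47, 1.20 and 1.04 in enterocytes. In the 23 ileal macrophages Tcn2 was counted at 1.80 UMIs per 10000 UMIs (50 UMIs), or 32.6% of the enterocyte level, beside a marker sum of 11.5% and 8.82% for Amn. With 1 library, the macrophages were not tested.

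**Figure D5:**
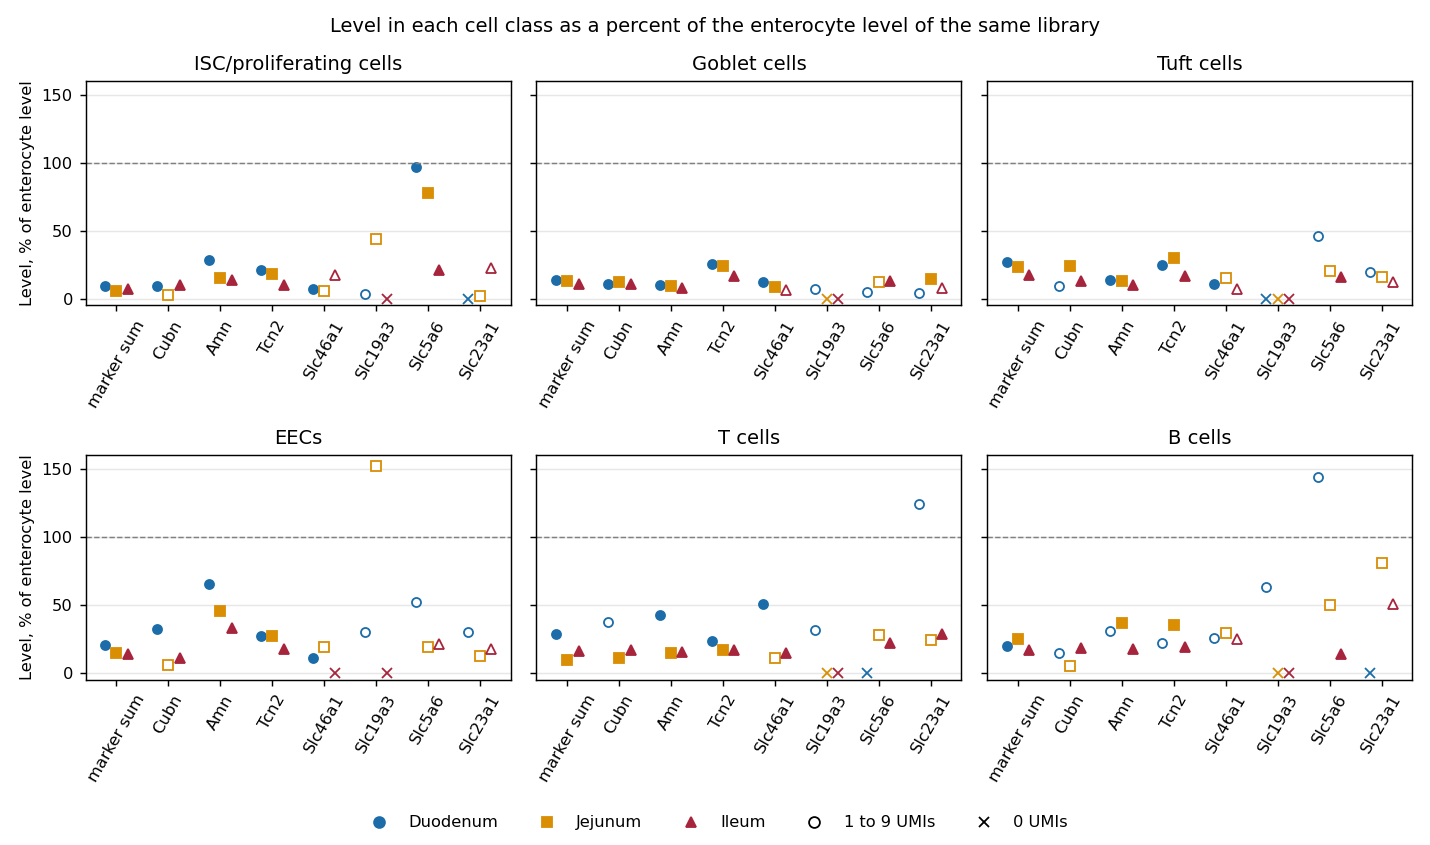
Level of the enterocyte marker sum and of each gene in ISC/proliferating, goblet, tuft, T and B cells and EECs, as a percent of the enterocyte level in the same library, with open points for 1 to 9 UMIs, as for every point drawn above the dashed line at 100%, and crosses for 0 UMIs. Amn of EECs (65.3%, 45.5% and 32.9%) and Slc5a6 of ISC/proliferating cells (97.0% and 78.0% in the duodenum and jejunum) lie above the marker sum of their class.

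The lists of other vitamin genes were read in the same fit. In ISC/proliferating cells, where 28.2% of all genes were higher than in enterocytes and 33.4% lower, 5 of 11 genes for vitamin B12 were higher and 3 lower, with Abcc1 (log2 fold change 4.26) and the transcobalamin receptor Cd320 (3.49) higher and Lmbrd1 (-2.48) lower. For folate 3 of 11 were higher and 1 lower, with Shmt1 (5.04) and Fpgs (3.36) higher and Abcg2 (-2.69) lower, and 6 were higher without TMM scaling. In the list for riboflavin and niacin all 9 genes tested were lower (8 with DESeq2 and 7 without TMM scaling), with -4.28 for Slc5a8 and -4.02 for Rfk, and 9 of 9 were lower in T cells (8 without TMM scaling) and in EECs (7 without it). Of all genes, 33.6% were lower in T cells and 27.7% in EECs. Goblet, tuft and B cells had 7, 8 and 8 of these 9 lower, where 19.4%, 24.2% and 30.7% of all genes were lower. Without TMM scaling these 3 counts were 7, 6 and 6, and with DESeq2 they were 6, 7 and 6. No gene of this list was called higher in any of these classes. For vitamin C, 3 of 5 were higher and 2 lower in ISC/proliferating cells, with Gulo (5.05) and Slc23a3 (3.47) higher and Slc23a2 (-2.55) lower. The values of Gulo, Slc23a3 and Abcc1 rest on few UMIs in enterocytes. From duodenum to ileum, enterocytes had 0, 1 and 4 UMIs of Gulo, 7, 20 and 28 of Slc23a3 and 11, 7 and 18 of Abcc1. Gulo thus entered the fit by its counts outside enterocytes. The lists for thiamine and vitamin B6 had 0 of 6 higher and 3 lower and for biotin and pantothenate 1 of 9 higher and 3 lower. Without TMM scaling these were 1 and 1, and 3 and 2.

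Folr1, the folate receptor alpha, was the list gene with the largest difference in tuft cells. It had 419 UMIs in the 47 tuft cells of the duodenum, 187 in the 66 of the jejunum and 233 in the 187 of the ileum, or 7.09, 3.31 and 2.07 UMIs per 10000 UMIs. All enterocytes of these segments had 8, 2 and 2 UMIs. The fitted log2 fold change of 11.43 rests on these few UMIs of enterocytes. Its p-value is not given, since Folr1 entered the fit by its counts outside enterocytes. Goblet cells had 0, 1 and 0 UMIs of it and EECs 1, 3 and 2. Slc2a1, the glucose carrier that also takes up the oxidised form of vitamin C, was likewise higher in tuft cells (log2 fold change 6.13, SE 0.41, edgeR adjusted p = 2.86e-11) and in goblet cells (5.24, SE 0.40, adjusted p = 2.96e-10). Tuft cells held 1.47, 1.43 and 1.83 UMIs of Slc2a1 per 10000 UMIs and goblet cells 0.542, 0.577 and 0.515, against at most 0.0273 in enterocytes.

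Finally, the genes most like each member were ranked by Pearson's r over the 15 sums of library and zone, among 10147 genes with at least 200 UMIs in enterocytes. These sums share 3 libraries, so r is a description without a test. Cpne2 (0.972), Aspa (0.970) and Smim22 (0.962) were most like Cubn, and the riboflavin carrier Slc52a3 (0.985) and Cry2 (0.974) were among those most like Amn. Onecut2 (0.975), Cyb5r3 (0.972) and Mapkapk2 (0.970) were most like Slc46a1, and Ctf1 (0.980), Prdm16 (0.979) and AC087556.1 (0.977) most like Slc19a3. For Slc5a6 these were Krba1 (0.974), Nr2c2 (0.964) and Ctsd (0.959), for Slc23a1 Ace (0.976), Dnase1 (0.966) and Pdk4 (0.962), and for Tcn2 Itch (0.964), Rps6kc1 (0.955) and Rara (0.949). Among the members themselves, r was 0.878 for Amn and Slc5a6, 0.874 for Slc46a1 and Slc19a3 and -0.863 for Amn and Slc19a3.

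In ileal enterocytes thinned to 3000 UMIs (4472 cells, 665 shallower ones left out), cells were divided by Slc10a2, the ileal bile acid transporter. Cubn was found in 58.5% of the 2212 cells with a UMI of Slc10a2 and in 36.6% of the 2260 others. Slc5a6 was found in 17.7% and 10.9%, Amn in 79.1% and 74.9%, Tcn2 in 80.2% and 73.4%, Slc46a1 in 2.49% and 4.20%, Slc23a1 in 2.12% and 3.05%, and Slc19a3 in none of either. These are cells of 1 library, and the shares are given without a test.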

How the data were processed

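The submitters' processing notes name Cell Ranger 3.0.2 and the mm10 build, and the authors deposited 1 matrix of raw UMI counts per gene and barcode for each segment. The counts are not normalized, and mice were pooled before sorting, so p-values do not measure the spread between animals. With the library as a block, they measure how far class or zone differences vary across the 3 segment libraries. The strand setting and the annotation of the counting are not given in the sources used here.

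Matrices were read with Python 3.11.15 (scipy 1.17.1, pandas 2.3.3, numpy 2.4.6) and clustered with Seurat 5.3.0 in R 4.3.3, after the filters on UMIs, genes and mitochondrial share given above. The limit on mitochondrial UMIs removed 5129, 3689 and 1291 barcodes from duodenum to ileum. The removed barcodes were not assigned to cell classes, so how complete the enterocytes of each segment are was not tested. Clusters came from 2000 variable genes without the members and the vitamin lists, 30 components, integration over the libraries and a resolution of 0.8, with mixed clusters divided again (20 components, resolution 0.5), and were named from fixed markers. No doublet caller was run, and a rebuilt name can differ from the cell class of the study. A level divides the summed UMIs of a gene by all UMIs of the same cells, times 10000.

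Sums of at least 10 cells per library and class or zone were tested with edgeR 4.0.16 (quasi-likelihood test with TMM scaling, a block for the library, and a threshold of 0.05 on Benjamini-Hochberg adjusted p), and DESeq2 1.42.0 was an alternative. Segments were compared by log2 ratios with exact 95% intervals and a background of genes with at least 10 UMIs in either library. The tests were run on simulated counts first. The members and lists were chosen with earlier results of these data known. Contrasts for EECs and B cells and those between zones 3 and 1 and 5 and 3 were chosen after the data were seen. Those of zones 2 and 4 against zone 1 were not planned beforehand either. Values of the 7 members are given for each class and for the comparisons among zones 1, 3 and 5, and, by list, up to 2 list genes per direction with the largest change. Some genes that this rule would name are not reported here. Alternatives were no TMM scaling, DESeq2, no library block, other filters, 3 zones, no integration, zone scores at equal depth or from fewer landmarks, zone 3 alone, non-mitochondrial UMIs as the denominator, fits of the compared classes alone, larger sums, and leaving out each library.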

Additional observations from a re-analysis of the deposited data

Results flagged for a closer look

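Between villus tip and bottom, 3 genes had a log2 ratio of UMIs per 10000 UMIs in zone 5 over zone 1 whose interval of counting error lay above 0 in at least 1 library and below 0 in another. The difference between libraries was not tested, since each segment has 1 library. From duodenum to ileum, Amn had 0.30, -0.27 and 0.49. Slc23a1 had 1.57, -0.67 and 0.71, and the ileal interval of counting error reached from -0.12 to 1.53. Tcn2 had -0.11, -0.48 and 0.40. Cubn (0.047, -2.28 and -2.27) and Slc5a6 (-0.39, 0.31 and -1.08) also differed in sign, but their values above 0 had intervals that include 0. These ratios carry no TMM scaling, unlike the fitted values.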

How the results depend on the processing

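Of 127 alternative counts of members called or past the fold, 117 were within 1.5 times the reported count and 10 were not. Between tip and bottom (4 reported), 2 members were called without TMM scaling, 2 with 3 zones, 0 without the library block by edgeR (0 at an unadjusted p under 0.05) against 5 with DESeq2 and the block, and 2 to 5 when 1 library was left out (2 without the ileum). For zone 3 against zone 1 (7 reported), 0 were called without the library block by edgeR (1 at an unadjusted p under 0.05, 7 with DESeq2 and the block), and 2 to 7 when 1 library was left out (2 without the jejunum). For zone 5 against zone 3 (3 reported), 5 were called without TMM scaling, with Amn and Tcn2 lower in addition, 1 at a limit of 20% mitochondrial UMIs, 0 without the library block by edgeR (1 at an unadjusted p under 0.05, 3 with DESeq2 and the block), and 1 to 3 when 1 library was left out (1 without the ileum). The sign of a tip value turned for Cubn (0.19 at 20% mitochondrial UMIs), for Slc5a6 (-0.47 without TMM scaling, -0.23 to 0.46 when 1 library was left out, the lowest without the jejunum, and -0.067 without the cluster led by Gm26917, an alternative chosen after seeing the data) and for Tcn2 (-0.080 without TMM scaling), and Amn in zone 5 against 3 was at 0.0027 with DESeq2 and at -0.11 to 0.047 when 1 library was left out, the highest without the jejunum. The cause was not tested. Class counts stayed between 4 and 7, with no sign turned among 479 alternative member values, of which 458 kept their call. Of 259 alternative member values among zones 1, 3 and 5, 202 kept their call and sign. Another 40 lost their call, 10 gained one and 7 turned in sign. Segment counts stayed between 4 and 6, but of 126 alternative member ratios between segments 67 were marked as moved and 59 as the same. Depth limits Slc19a3 in the ileum (2 UMIs) and every member in classes of few cells.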
